A study of Homo sapiens with 8 samples.

Results

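The interferon response and antigen presentation on MHC class I were followed through 9 genes of SK-BR-3 cells, an established human breast cancer line, after TALEN-made deletions of the microRNA genes mir-141 and mir-200c. TALENs are designed nucleases that cut DNA at a chosen site. The genes are OAS3, IFITM1, ISG15, IFIH1, GBP1, PSMB8, TAP1, HLA-B and HLA-C, found by symbol as 9 of the 9245 rows of the deposited expression table. They were selected on their ratios in set 1, the first of the experimental sets, so their values there are given as a description, with no test. Messenger RNA was sequenced from 4 genotypes in 2 experimental sets, 8 libraries in all. The genotypes were the unedited wild type, the knockout of mir-141, that of mir-200c, and the double knockout of both genes. Each knockout library was 1 clone, clones 23, 11 and 55 in set 1 and clones 10, 29 and 61 in set 2 (in the order mir-141, mir-200c, double), so genotype and clone cannot be told apart within a set. All values are log2 ratios of a knockout clone to the wild type of its own set, and a log2 ratio of 1 is a 2-fold higher level. Levels, read counts and depth are not in the table, so the sequencing error of a single ratio is unknown and the 3 ratios of a set share 1 wild type library.

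Interferons are secreted when a cell senses foreign nucleic acid. Their receptors signal through JAK kinases and STAT and IRF factors, which bind interferon-stimulated response elements (ISRE) and gamma-activated sites in the promoters of their target genes. The targets include sensors and antiviral effectors as well as the MHC class I pathway, in which the proteasome cuts proteins into peptides, the TAP transporter carries them into the endoplasmic reticulum, and HLA molecules show them on the cell surface to T cells. In tumour cells this pathway decides how visible the cell is to cytotoxic T cells. mir-141 and mir-200c are neighbours on chromosome 12, belong to the miR-200 family, and are best known for holding down the ZEB factors in epithelial cells.

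The mature microRNAs are shown because a direct target would carry the complement of the seed (bases 2 to 8, in capitals) in its 3′ UTR. Both lie on the plus strand of chromosome 12, hsa-miR-200c-3p at chr12:6963742-6963764 and hsa-miR-141-3p at chr12:6964155-6964176 (RefSeq, GRCh38.p14).
hsa-miR-141-3p: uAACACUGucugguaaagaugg
hsa-miR-200c-3p: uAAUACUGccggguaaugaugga

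A seed match of 7 letters, CAGTGTT for mir-141 and CAGTATT for mir-200c, was searched in the 3′ UTR of the GENCODE transcript that carries each row's RefSeq accession. None of the 9 genes held either heptamer, while 18.1% of the 8958 genes with a 3′ UTR held the mir-141 match and 16.2% the mir-200c match. The UTRs of the 9 genes ran from 62 bases in ISG15 to 3276 bases in OAS3, and a short UTR has fewer chances to hold a heptamer. The absence of these letters says nothing of other kinds of site.

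Promoter windows are shown for 4 of the genes because they hold an element that 7 of the 9 genes carry. The 9 were chosen as interferon response and MHC class I genes, in whose promoters such elements are known to lie. The counts below are therefore a description and no independent support. Each window spans 250 bases before to 50 bases after the transcription start given by its promoter entry. An ISRE-like motif, GAAANNGAAA on either strand, was present in a window of 7 of the 9 genes, against 3.45% of the 7110 measured genes with a promoter entry. It was found in OAS3, IFITM1, ISG15, IFIH1, GBP1, PSMB8 and TAP1, with 3 matches in IFIH1, 1 each in GBP1 and PSMB8, and 2 in each of the others. HLA-B and HLA-C held no match. The kappa B-like motif GGGANNNNCC was found in 5 of the 9, with 2 matches each in HLA-B, HLA-C, OAS3 and IFIH1 and 3 in TAP1, and 38.1% of the measured genes carried it. In OAS3 and HLA-B the 2 matches overlap, being the same stretch matched on either strand. A gamma-activated-site motif, TTCNNNGAA, was found in IFITM1, PSMB8 and TAP1 (8.17% of measured genes). PSMB8 and TAP1 each have a pair of windows, and the ISRE-like match lay in 1 of the pair. In the sequences, capitals mark the ISRE-like matches, which overlap in ISG15 and TAP1. The first match begins 143 bases before the start in OAS3, 113 in ISG15, 127 in GBP1 and 134 in TAP1. These distances are counted from the start of the promoter entry. Of these 4 genes, only ISG15 has the same start in the gene coordinates given further on. By those coordinates the TAP1 window and the GBP1 match lie inside the gene, and the first OAS3 match lies before its start. The windows are chr12:112938224-112938523 (plus strand), chr1:1013247-1013546 (plus), chr1:89065159-89065458 (minus) and chr6:32853655-32853954 (minus), from RefSeq, GRCh38.p14.
OAS3: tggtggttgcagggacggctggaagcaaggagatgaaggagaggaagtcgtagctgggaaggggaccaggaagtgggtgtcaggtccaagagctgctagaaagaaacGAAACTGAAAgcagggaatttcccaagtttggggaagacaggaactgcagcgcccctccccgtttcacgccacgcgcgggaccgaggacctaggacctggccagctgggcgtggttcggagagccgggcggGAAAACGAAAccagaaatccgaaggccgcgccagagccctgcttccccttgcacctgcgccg
ISG15: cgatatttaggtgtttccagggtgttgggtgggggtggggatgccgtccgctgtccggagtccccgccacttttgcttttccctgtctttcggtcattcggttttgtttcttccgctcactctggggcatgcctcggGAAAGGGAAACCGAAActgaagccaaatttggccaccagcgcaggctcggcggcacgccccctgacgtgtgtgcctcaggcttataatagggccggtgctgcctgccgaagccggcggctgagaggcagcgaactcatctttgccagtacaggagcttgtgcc
GBP1: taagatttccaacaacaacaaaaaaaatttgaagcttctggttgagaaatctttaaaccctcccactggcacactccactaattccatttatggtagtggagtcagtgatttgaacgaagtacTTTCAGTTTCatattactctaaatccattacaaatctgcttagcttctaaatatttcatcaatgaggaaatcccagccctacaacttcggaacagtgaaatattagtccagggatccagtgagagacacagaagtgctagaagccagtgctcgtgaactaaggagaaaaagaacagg
TAP1: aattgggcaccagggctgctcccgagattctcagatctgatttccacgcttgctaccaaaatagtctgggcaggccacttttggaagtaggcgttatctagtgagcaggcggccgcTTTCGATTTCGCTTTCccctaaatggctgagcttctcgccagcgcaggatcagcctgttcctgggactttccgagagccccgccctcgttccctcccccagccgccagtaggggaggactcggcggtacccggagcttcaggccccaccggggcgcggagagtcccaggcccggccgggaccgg

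The other 238 measured genes with a match showed a median log2 ratio of 0.0044 for the set 1 clone without mir-200c, against −0.0182 in the 6863 genes without one. A log2 ratio above 1 was reached by 3.36% of the former and 1.62% of the latter in that clone, by 2.52% and 1.44% in the double knockout and by 0.84% and 0.60% in the mir-141 knockout. These shares are a description and were not tested.

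The ratios of set 2 do not line up, row by row, with those of set 1. The set 1 ratios were taken to belong to the gene names beside them, which was assumed and not tested. At the rows as listed, set 1 and set 2 ratios were uncorrelated across 9245 genes for every pairing of genotypes (Pearson r from −0.0022 to 0.0105, 9 pairings that share their gene rows). Reading set 2 a few rows above or below the listed row restored a correlation, as detailed further on. Set 1 is therefore described first, and set 2 is given both at the listed rows and at estimated rows.

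In set 1 all 9 genes had a higher level in the mir-200c knockout clone than in the wild type. Their median log2 ratio there was 1.14, and 6 of 9 stood above 1, where 1.70% of all rows did. In the double knockout 8 of 9 were above 0 and 1 was above 1 (1.53% of all rows), with a median of 0.33. In the mir-141 knockout 6 of 9 were above 0 and none was above 1 (0.584% of all rows), with a median of 0.15. These counts restate the values on which the genes were selected and support nothing beyond them. Over all 9245 rows the medians were −0.0084 for mir-141, −0.0169 for mir-200c and −0.0272 for the double knockout.

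**Figure D1:**
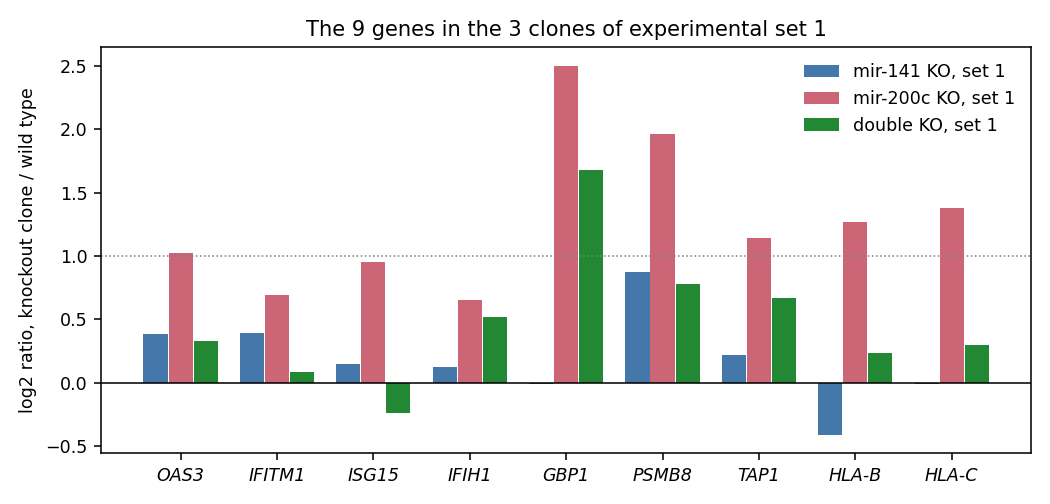
Log2 ratio to the wild type (vertical axis) of the 9 genes (horizontal axis) in the 3 knockout clones of set 1, coloured by genotype; each bar is 1 clone, so there is no error bar, and the dotted line marks a log2 ratio of 1. The mir-200c knockout bar is the tallest of the 3 for every gene, from 0.65 for IFIH1 to 2.50 for GBP1.

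The cytosolic RNA sensor IFIH1 (MDA5, chr2:162267079-162318703, GRCh38) binds long double-stranded RNA. In set 1 its log2 ratio was 0.12 after mir-141 loss, 0.65 after mir-200c loss and 0.52 in the double knockout clone. It was the gene with the smallest gap between those clones, a double minus mir-200c difference of −0.13. OAS3 (chr12:112938352-112973249) makes 2′-5′ oligoadenylates that switch on the nuclease RNase L. It stood at 0.39, 1.03 and 0.33 in the same order, a 2.04-fold level in the mir-200c knockout. Its value in the double knockout was close to that in the mir-141 knockout.

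ISG15 (chr1:1013497-1014540) is a ubiquitin-like protein that is joined to other proteins after interferon. Its log2 ratios were 0.15, 0.95 and −0.24, so the double knockout clone lay below the wild type. That is the only one of the 9 genes below 0 in the double knockout, and its gap to the mir-200c knockout, −1.19, was the widest. IFITM1 (chr11:313853-315272) is a membrane protein that blocks virus entry. It stood at 0.39, 0.69 and 0.09, and reads of IFITM1 may be shared with its close relatives IFITM2 and IFITM3, since how reads were counted is not stated in the sources used here.

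GBP1 (chr1:89052319-89065360), a GTPase that coats intracellular pathogens, had the largest ratio of the 9. It stood at −0.01 without mir-141, 2.50 without mir-200c and 1.68 without both. The mir-200c value is a 5.67-fold level and the seventh highest of all 9245 rows, and the double knockout value ranked 27 from the top. For this gene the mir-141 knockout clone was at the wild type level.

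PSMB8 (chr6:32840717-32844703), a catalytic subunit of the immunoproteasome, stood at 0.88, 1.97 and 0.78. It was above 0.5 in all 3 clones, which no other gene of the 9 was. TAP1 (chr6:32845209-32853978), a subunit of the peptide transporter and the next gene along the chromosome, stood at 0.21, 1.14 and 0.67. Both genes were highest in the mir-200c knockout, and PSMB8 alone of the pair was above 0.5 in the mir-141 knockout.

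HLA-B (chr6:31353872-31357187) and HLA-C (chr6:31268749-31272086) are the heavy chains that carry peptides to the cell surface. HLA-B stood at −0.41 without mir-141, 1.27 without mir-200c and 0.23 without both. HLA-C stood at −0.01, 1.38 and 0.29. In the mir-141 knockout only 4.18% of all rows had a lower ratio than HLA-B. HLA genes are close copies of each other and differ between people, so reads can be assigned to the wrong one or lost against the reference.

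Differences between clones of set 1 cancel the shared wild type. The mir-200c knockout exceeded the mir-141 knockout in all 9 genes, by 0.30 (IFITM1) to 2.51 (GBP1), where 47.6% of all rows had a positive difference. The double knockout lay below the mir-200c knockout in all 9, with a median difference of −0.82, where 49.99% of all rows had a positive difference. Between the double and the mir-141 knockout the genes divided, with 5 of 9 higher in the double knockout, where 46.7% of all rows were. The 5 were IFIH1 (0.40), GBP1 (1.69), TAP1 (0.46), HLA-B (0.64) and HLA-C (0.30). These differences rest on 1 clone per genotype and use the ratios by which the genes were selected.

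Relatives of the 9 genes differed among themselves in sign. In the GBP family, GBP2 stood at −0.08, 1.31 and 0.87 in set 1, in the order of GBP1, while GBP5 stood at −0.72, −1.23 and −0.99. IFIT1, an antiviral RNA-binding protein, stood at −0.21, 0.81 and 0.10. IFITM2 was at 0.30, −0.46 and −0.31, IFITM3 at 0.21, 0.09 and 0.14, and IFITM10 at 1.44, 0.77 and 1.42. USP18, which removes ISG15 from proteins, stood at −0.19, −0.03 and −0.08. BST2 (tetherin), an interferon target that holds virus at the cell surface, was at −0.89, −0.70 and 0.08.

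Along the presentation pathway the proteasome subunits came first. PSMB10, the other measured immunoproteasome subunit, stood at 0.07, 0.38 and 0.24. The 3 constitutive subunits that the immunoproteasome replaces had mir-200c knockout ratios of 0.12 (PSMB5), −0.56 (PSMB6) and −0.26 (PSMB7). The activator subunit PSME1 stood at 0.26, 0.37 and 0.27, and PSME2 at −0.07, 0.01 and −0.02. In peptide loading, TAP2, the partner of TAP1, stood at −0.11, 0.36 and 0.42. Tapasin (TAPBP) was at 0.27, 0.42 and 0.56, and ERAP1, which trims peptides to length, at 0.16, 0.70 and 0.95. HLA-E stood at 0.23, 0.79 and 0.46, and B2M, the light chain shared by all class I molecules, at 0.10, 0.17 and 0.35.

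Over all rows of set 1, 48.1% were above 0 without mir-141, 48.0% without mir-200c and 46.3% without both. With the 9 genes left out, 33 of 81 listed interferon-stimulated genes were measured. In the mir-200c knockout of set 1, 21 of the 33 were above 0 and 12 were above 0.5, against 9.05% of all rows above 0.5, with a median of 0.20. In the double knockout 19 of 33 were above 0 and 7 above 0.5 (7.36% of all rows), with a median of 0.02. In the mir-141 knockout 17 were above 0 and 2 above 0.5 (3.55% of all rows), with a median of 0.05. The highest besides GBP1 and GBP2 by the mean of the mir-200c and double knockouts was PML, the organiser of nuclear bodies, at 0.15, 0.91 and 0.87. The lowest of the list were LY6E (−0.57, −0.61 and −0.74), GMPR (−0.13, −0.30 and −0.92) and IFITM2. GBP5 is not in this list, which holds its relatives GBP1 and GBP2, and is not in these counts. It stood below LY6E in each clone, at −0.72, −1.23 and −0.99.

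The presentation list without the 9 genes had 13 of 21 genes measured. In the mir-200c knockout 10 of the 13 were above 0 and 3 above 0.5, with a median of 0.36 (48.0% and 9.05% of all rows). In the double knockout 8 were above 0 and 2 above 0.5, with a median of 0.24 (46.3% and 7.36% of all rows). In the mir-141 knockout 8 were above 0 (48.1% of all rows), none was above 0.5 (3.55%), and the median was 0.06. MHC class II genes, a separate pathway that shows peptides to helper T cells, had 4 of 18 members measured, with medians of −0.14, −0.12 and −0.14. HLA-DMA stood at −0.17, −0.04 and 0.74, and RFX5, a factor that switches these genes on, at −0.01, 0.14 and 0.10. IFI30 (−0.27, −0.34 and −0.42) and RFXANK (−0.11, −0.19 and −0.38) were below 0 in all 3 clones.

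Upstream of the targets, 28 of 40 genes of interferon signalling were measured, with medians of 0.04, 0.21 and 0.08. The highest were the transcription factors IRF1 (0.48, 0.70 and 0.68), IRF2 (0.25, 0.47 and 0.61) and STAT2 (0.33, 0.42 and 0.64). At the low end were PIAS1 (−0.05, −0.40 and −0.05), IRF3 (−0.05, −0.12 and −0.30) and PTPN1 (0.02, −0.21 and 0.02). Of the nucleic acid sensing genes other than IFIH1, 24 of 35 were measured and their medians were −0.05, 0.03 and 0.02. The adaptor TRAF6 stood out at 1.88, 2.07 and 1.93, followed by RNF135 (0.68, 0.95 and 0.64) and the RNA-activated kinase EIF2AK2 (0.53, 0.83 and 0.55). The lowest were SAMHD1 (−0.19, −0.66 and −0.53), RNASEH2B (−0.14, 0.19 and −1.02) and RNASEH2C (−0.12, −0.19 and −0.32).

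**Figure D2:**
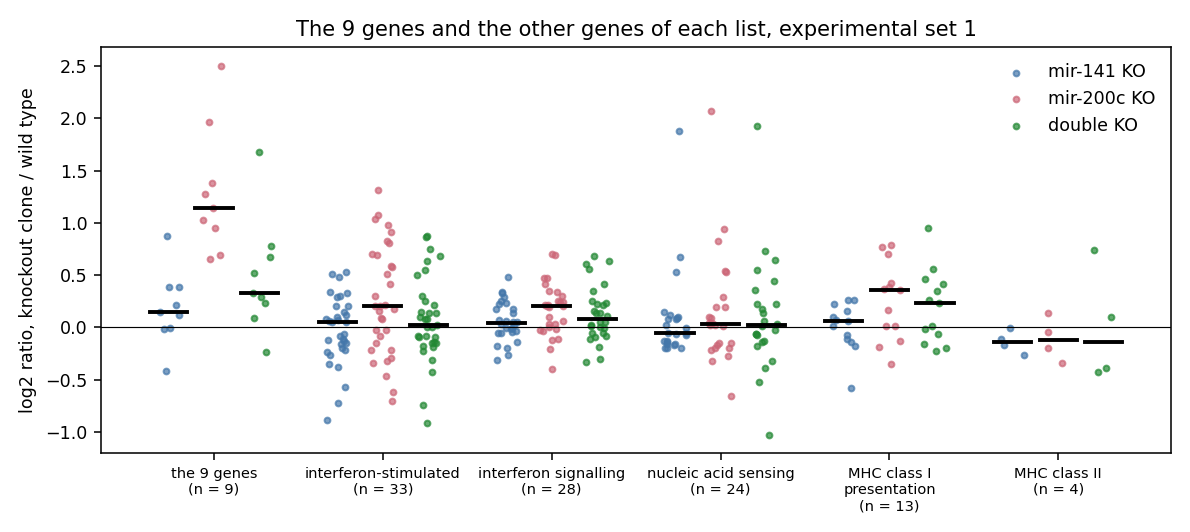
Log2 ratio to the wild type (vertical axis) of the 9 genes and of the other measured genes of 5 lists (horizontal axis) in the 3 clones of set 1; each point is 1 gene and black lines are medians. Outside the 9 genes, the medians in the mir-200c knockout run from −0.12 for MHC class II to 0.36 for MHC class I presentation.

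Of the 9 genes, 4 lie in the major histocompatibility complex on chromosome 6, so their neighbours were read in chromosomal order. The 32 other measured genes between HLA-C and TAP1 had medians of 0.07, −0.07 and 0.02 for mir-141, mir-200c and double loss, and none of them stood above 1 in the mir-200c knockout. The nearest to it was TNF, the inflammatory cytokine, at 0.46, 1.00 and 0.81. Right beside HLA-B, DDX39B stood at −0.05, −0.07 and −0.21, and NFKBIL1 at 0.05, 0.37 and −0.25. Beyond TAP1, HLA-DMA, BRD2 (−0.01, −0.27 and −0.20) and RXRB (−0.15, −0.08 and −0.22) stood below 0 in the mir-200c knockout. Over all 467 measured genes of chromosome 6 the medians were −0.0025 for mir-141, 0.11 for mir-200c and −0.0154 for double loss. In the mir-200c knockout 277 of the 467 were above 0, where 48.0% of all rows were. The part of this shift in the values of the 4 genes was not tested.

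**Figure D3:**
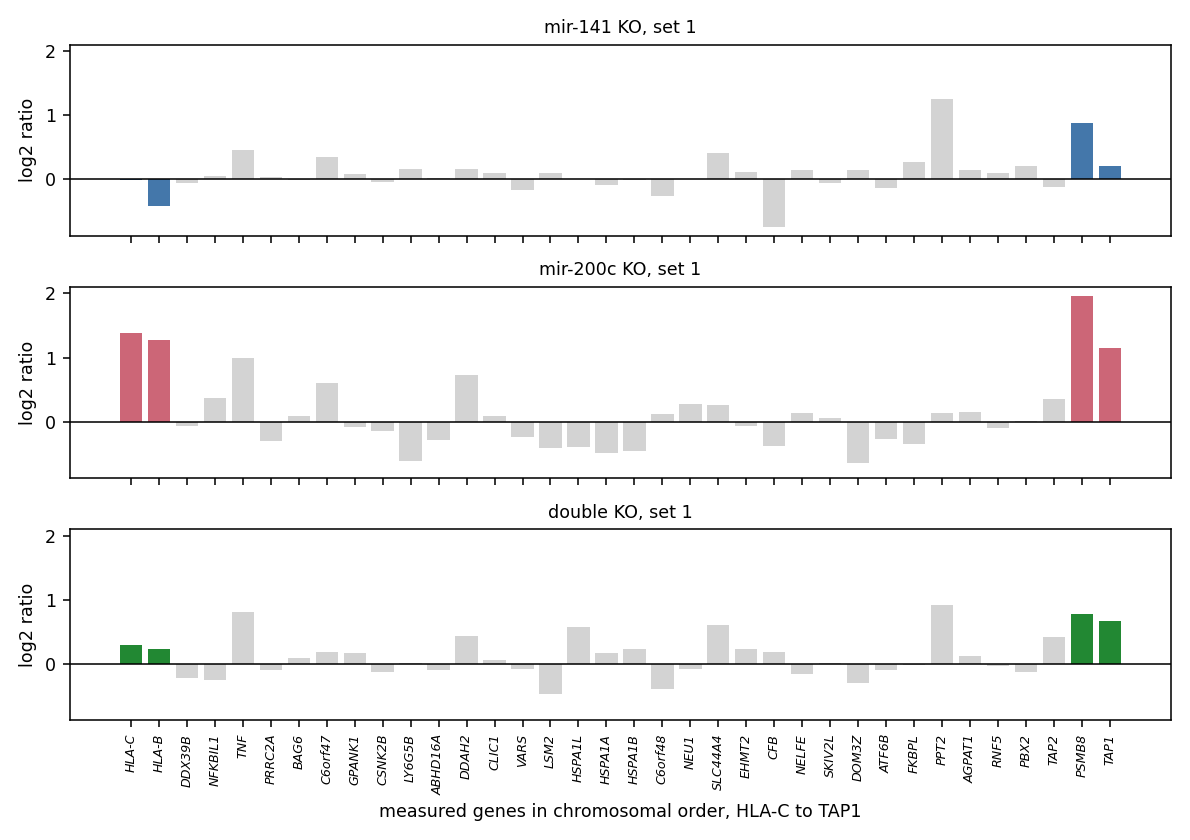
Log2 ratio to the wild type (vertical axis) of the measured genes from HLA-C to TAP1 in chromosomal order (horizontal axis), 1 panel per knockout clone of set 1; coloured bars are HLA-C, HLA-B, PSMB8 and TAP1, grey bars the 32 other genes. In the mir-200c knockout the 4 coloured bars reach 1.14 to 1.97 and no grey bar passes 1.

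The rows most like each gene over the 3 ratios of set 1 were found by Euclidean distance, which is a likeness over 3 clones only. The nearest row was TP53I13 for OAS3 (distance 0.0635), P2RX4 for IFITM1 (0.0399), CPOX for ISG15 (0.198) and CCPG1 for IFIH1 (0.0430). It was ZNF641 for PSMB8 (0.422), SYTL4 for TAP1 (0.0872), QDPR for HLA-B (0.113) and GLYATL2 for HLA-C (0.254). Of the 9, GBP1 lay farthest from its nearest row, OSTM1 (0.669), at 0.29, 2.03 and 1.32.

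At the rows as listed, the 9 genes lay between −0.63 and 0.43 in set 2. The mir-141 knockout of set 2 ranged from −0.15 (OAS3) to 0.34 (PSMB8), the mir-200c knockout from −0.12 (HLA-C) to 0.29 (GBP1) and the double knockout from −0.63 (HLA-C) to 0.43 (PSMB8). None of the 9 stood above 1, where 1.51% of all rows did without mir-141, 0.973% without mir-200c and 2.42% without both. Their medians were −0.02, 0.13 and −0.20.

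The listed values were examined with a model in which set 2 is displaced against set 1 by a number of rows that changes slowly. Only the displacement between the sets can be estimated in this way, with set 1 taken as in place. The displacement at each row was estimated from all other rows. The set 1 ratios of the 123 measured genes of the lists, the 9 genes among them, were left out of the matching. Set 2 values later read for these genes could still enter at neighbouring rows, so they were not wholly held out. A displacement reached a probability of 0.9 at 3979 rows (43.0%), and at 100 of these it was 0. It drifted from 18 rows above to 17 rows below the listed row. At those rows the sets correlated at 0.17 for mir-141 loss, 0.46 for mir-200c loss and 0.47 for the loss of both. Pairings of unlike genotypes ran from 0.24 to 0.35 there, and the set 1 mir-141 clone correlated more with the set 2 mir-200c (0.27) and double knockout (0.33) clones than with the set 2 mir-141 clone. Among the 63 list genes that could be read, whose set 1 ratios were left out of the matching, the correlation was 0.13, 0.62 and 0.53, and 0.19 to 0.52 between unlike genotypes. In 18 blocks of 500 rows the mean correlation of matched genotypes ran from 0.24 to 0.59 at estimated rows and from −0.05 to 0.06 at listed rows. Genes within a library are not independent replicates, and how the displacement arose was not tested.

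**Figure D4:**
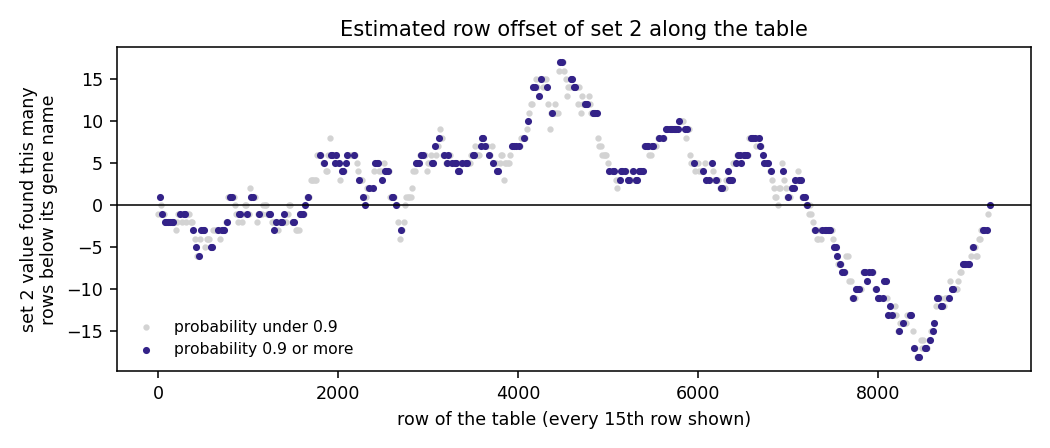
Estimated displacement of set 2 against set 1 along the table (horizontal axis, row number, every 15th row). The vertical axis is the number of rows below the gene name at which the set 2 value is found, with set 1 taken as in place. Dark points have a probability of at least 0.9; they drift between 18 rows above and 17 rows below the listed row and seldom lie on the line at 0.

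At estimated rows, 4 of the 9 genes could be read, and each was above 0 in all 3 clones of set 2, where 45.7% of the 3979 rows read were above 0 without mir-141, 47.15% without mir-200c and 45.6% without both. ISG15, 9 rows below its name (probability 0.990), stood at 1.89 without mir-141, 1.35 without mir-200c and 1.14 without both. HLA-B, 1 row below (0.996), stood at 1.14, 1.09 and 0.31. OAS3, 6 rows below (0.925), stood at 1.01, 0.60 and 0.70. IFITM1, 1 row below (0.937), stood at 0.91, 0.34 and 0.60. In all 4 genes the highest ratio of set 2 was that of the mir-141 knockout, while in set 1 the mir-141 knockout, another clone, was the highest for none of them. The set 2 ratio in the mir-200c knockout was above 0 for all 4, as in set 1. HLA-B in the mir-141 knockout and ISG15 in the double knockout had opposite signs in the 2 sets.

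The cutoff of 0.9 and the form of the model were chosen after the values of these genes had been seen. For the other 5 genes no displacement reached the cutoff, and their most probable rows did not agree on a direction. TAP1 (probability 0.678) would stand at 1.43, 0.92 and 0.99, and HLA-C (0.689) at 1.30, 0.89 and 0.00. IFIH1 (0.760) would stand at 0.42, −0.37 and −0.16, and GBP1 (0.477) at 0.03, 0.09 and 0.00. PSMB8 (0.849) would stand at −0.24, −0.18 and −0.45, while the row next to it, with a probability of 0.071, holds 3.43, 2.05 and 2.00. Where the model allows a share of 0.2 of the rows to have no partner, PSMB8 passes the cutoff too (0.933), at the same row below 0, and would be the one gene read with negative ratios in all 3 clones. No set 2 value is taken for these 5 genes.

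**Figure D5:**
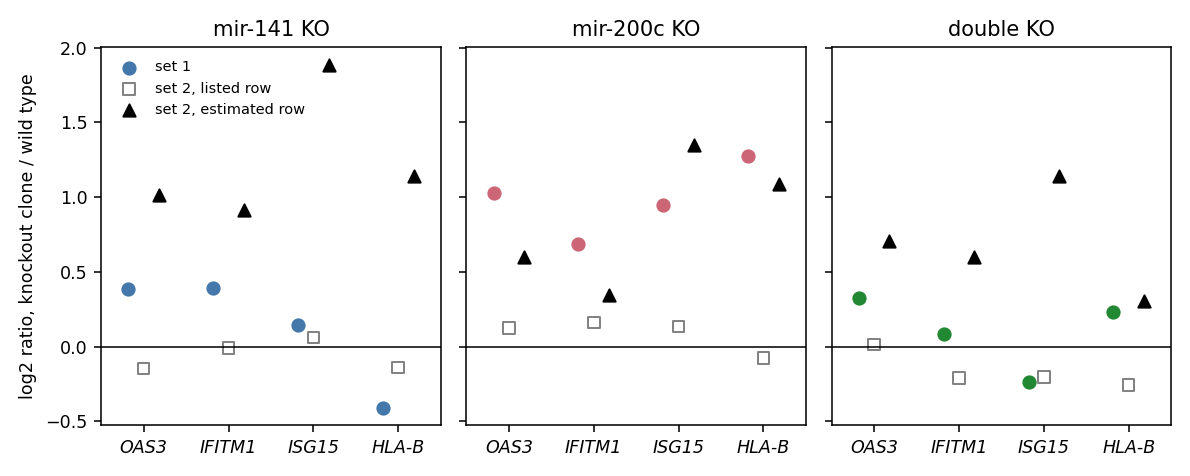
Log2 ratio to the wild type (vertical axis) of the 4 genes whose set 2 row could be estimated (horizontal axis), 1 panel per genotype; filled circles are set 1, open squares set 2 at the listed row and triangles set 2 at the estimated row, each from 1 clone. The triangles lie above 0 in all 3 panels, from 0.31 to 1.89, while the squares lie between −0.26 and 0.16.

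The lists were read in the same way. Of the interferon-stimulated genes other than the 9, 15 could be read in set 2, and the shares of all rows read that were above 0 are those just given (45.7%, 47.15% and 45.6%). In the mir-141 knockout 12 of the 15 were above 0 and 6 above 0.5 (7.06% of the 3979 rows read), and the median was 0.42. In the mir-200c knockout 14 were above 0 and 6 above 0.5 (5.58% of the rows read), with a median of 0.40, and in the double knockout 10 were above 0 and 3 above 0.5 (9% of the rows read), with a median of 0.14. LGALS3BP, a secreted glycoprotein, stood at 1.73, 0.98 and 0.40, IRF7 at 1.05, 0.40 and 0.73, TRIM21 at 1.00, 0.53 and 0.34, and IFIT1 at 0.59, 0.58 and 0.14. LAP3 was the lowest of the 15 in each clone, at −0.30, −0.31 and −0.50. Outside this list and its counts, GBP5, a relative of GBP1, stood at −0.40, −0.58 and −1.80, below 0 as in set 1. In each clone that is lower than LAP3. Of the presentation genes, 5 could be read besides HLA-B. PSMB10 stood at 1.37, 0.26 and 0.30, TAP2 at 1.06, 0.45 and 0.38, and B2M at 0.53, 0.32 and 0.50. PSME2 (0.31, 0.16 and 0.21) was also above 0 in all 3 clones, and PDIA3 (−0.17, −0.28 and 0.08) was not. Several genes that were high in set 1 were not high in set 2, among them TRAF6 (0.09, 0.32 and 0.22) and IRF1 (−0.15, 0.12 and −0.20).

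The study's comparison of each knockout with the wild type over both sets was fitted with limma across all 9245 rows as listed, with the set as a block. No gene was called at an adjusted p under 0.05 (0% of rows) for either single knockout or the double knockout. None was called for the loss of either microRNA across both backgrounds. The sets are uncorrelated at these rows, so the absence of calls decides nothing about the genotypes. At an unadjusted p under 0.05 limma held 248 rows for the mir-141 knockout, 499 for mir-200c, 581 for the double knockout, and 476 and 821 for the losses of mir-141 and mir-200c. No mean or p is given for the 9 genes, since the fit joins the set 1 values on which they were selected with set 2 values that may belong to other genes.

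With set 2 at the estimated rows the limma fit covered 3979 rows and called 0 for the mir-141 knockout (0%, with 301 rows at an unadjusted p under 0.05), 1 for the mir-200c knockout (0.0251%) and 8 for the double knockout (0.201%). It called 1 for the loss of mir-141 (0.0251%) and 15 for the loss of mir-200c (0.377%). None of the 4 genes was among the calls. The calls are given for the table as a whole: with the set 1 values of the 4 genes already used to select them, the fit is no test of those genes. With 2 clones per genotype, 1 in each set, the p-values rest on how far the genotypes differ between the sets. That spread joins differences of clones, wild type libraries and sequencing with errors in the estimated rows, which cannot be told apart.

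Identity and purity of the cells could be followed only as ratios. Of 11 SK-BR-3 markers 9 were measured, with set 1 ratios from −0.24 to 0.27. At estimated rows 5 of them could be read in set 2, with ratios from −1.18 to 0.74. The lowest there was MUC1, at −1.13, −1.18 and −0.91. Of 16 blood cell markers 4 were measured, namely LCP1 (−0.13, 1.05 and −0.44), CSF1R (−0.08, 0.83 and 0.89), CD68 (0.52, −0.48 and 0.40) and CORO1A (−0.01, −0.54 and −0.48), and of 10 fibroblast markers 3 were measured, with set 1 ratios from −0.41 to 1.29. In the mir-200c knockout of set 1, 2 of the 4 blood cell markers stood above 0, with a median of 0.17. At estimated rows of set 2, 2 blood cell markers ran from −0.66 to 0.72. There 2 fibroblast markers ran from −0.35 to 2.26, the highest being COL5A2 in the double knockout. The part of these markers in the results was not tested. In a bulk library a change in the share of cells that express a gene and a change in RNA per cell cannot be told apart.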

How the data were processed

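Poly(A) RNA of 8 libraries (4 genotypes in 2 experimental sets) was sequenced on a HiSeq 2000, per the labels' protocols. The submitters' processing notes name TopHat2 and GRCh37.p10, with no version of the aligner. They do not state the counting, the scaling or any filter. The authors deposited log2 ratios of each knockout clone to its wild type for 9245 rows, with no counts, so depth and counting error are unknown. Rows were matched to GENCODE 29 (GRCh38) by RefSeq accession or symbol, 9226 of 9245.

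The 9 genes and all lists were chosen with earlier results of these data known. Beside the 9, genes were named by fixed rules: all measured relatives, the 3 highest and 3 lowest of a list by the mean of the mir-200c and double knockouts of set 1, up to 5 chromosomal neighbours, and the 3 nearest rows by Euclidean distance (the first is printed). LGALS3BP, IRF7, TRIM21, LAP3, BST2, USP18, MUC1, COL5A2, LCP1, CSF1R, CD68 and CORO1A were named after their values were seen. Comparisons over both sets used limma 3.58.1 in R 4.3.3, two-sided, with each wild type entered as 0, the set as a block and Benjamini-Hochberg adjustment over all rows. It was tested on simulated data. The replicate number is the experimental set in the labels, which pairs each clone with its wild type.

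Displacement of set 2 was noticed after the ratios had been examined. Re-sorting the table in several orders, in both directions and at all displacements, was tried first without a clear match, then windows of 500 rows, then a hidden Markov model with displacements of up to 40 rows. The model was fitted with 9 preset shares of unmatched rows, of which 2 could not be fitted. The simplest, with none, was kept although its log-likelihood (1237) was lower than at a share of 0.3 (1457).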

Additional observations from a re-analysis of the deposited data

Results flagged for a closer look

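The ratio of HLA-B in the mir-141 knockout was −0.41 in set 1 (clone 23) and 1.14 in set 2 (clone 10) at the estimated row, opposite in sign. The ratio of ISG15 in the double knockout was −0.24 in set 1 (clone 55) and 1.14 in set 2 (clone 61) at the estimated row. Each was noted because the clones of the 2 sets lay on opposite sides of their wild types. With 1 clone on each side the difference was not tested, and a difference between sets and a difference between clones cannot be told apart. At the listed rows the set 2 ratios were −0.14 for HLA-B and −0.20 for ISG15.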

How the results depend on the processing

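At the listed rows the 2 sets were uncorrelated, so few calls could arise from both sets and their absence decides nothing. The count of genes called by limma there was 0 in all 5 comparisons. It remained 0 with no replicate block, with columns centred on their medians and with robust empirical Bayes. For the losses of mir-141 and mir-200c it was also 0 with the set 1 libraries alone, where the other 3 comparisons leave no residual degrees of freedom. Leaving out each library in turn gave 0 to 1 calls for the mir-141 knockout, 0 to 1 for the mir-200c knockout, 0 to 2 for the double knockout and 0 for either loss. Calls appeared without the set 2 wild type in all 3 knockouts (1, 1 and 2), and in the mir-200c knockout also without either of its own clones (1 each). An arm left with 1 clone is assumed to vary like the others. Reading set 2 at estimated rows, added after seeing the data, gave 1 call for the mir-200c knockout, 8 for the double knockout, 1 for the loss of mir-141 and 15 for the loss of mir-200c. Leaving out each library in turn there gave 0 to 5 calls for the mir-141 knockout (5 without its set 1 clone), 0 to 2 for the mir-200c knockout, 0 to 7 for the double knockout, 0 to 6 for the loss of mir-141 (6 without the set 2 mir-141 clone) and 0 to 16 for the loss of mir-200c. The 8 were 1 without either wild type or either mir-200c clone and 0 without the set 2 double knockout, and the 15 were 0 without any 1 of 7 libraries and 16 without the set 2 mir-141 clone. With no replicate block these counts were 0, 2, 31, 0 and 14. The alternatives were not run for the limma means of single genes.

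The median of the 9 genes in the mir-200c knockout of set 1 was 0.95 without those on chromosome 6. At estimated rows the median of the 4 genes read in set 2 was 1.08 without mir-141, 0.85 without mir-200c and 0.65 without both, against −0.02, 0.13 and −0.20 for all 9 at listed rows. Centring moved no value of the 9 genes by more than 0.0324, and changed the sign of 3 of 54. With limits of 0.5 and −0.5 in place of 1 and −1, the rows past a limit were 571, 1569 and 1148 in set 1 and 1162, 960 and 1531 in set 2. Across the 7 shares of unmatched rows that could be fitted, OAS3, IFITM1, ISG15 and HLA-B kept their row, with a probability under 0.9 at a share of 0.5 for OAS3 (0.821) and ISG15 (0.528). PSMB8 passed 0.9 at shares of 0.05 to 0.3, with negative set 2 ratios. The cause of these shifts was not tested. Without counts, no limit of detection can be given.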
